A study of Saccharomyces cerevisiae with 4 samples.

Results

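The ergosterol pathway of budding yeast (Saccharomyces cerevisiae) was followed through 34 genes that were chosen by gene symbol. They encode the enzymes from acetyl-CoA to ergosterol, the enzymes that esterify or acetylate sterols and reverse these steps, and sterol regulators. All 34 were on the array, out of 5449 genes named in all, and each was read by 1 probe set. Every one passed the filter on dim probe sets and was tested.

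Ergosterol is the main sterol of fungal membranes and takes the place that cholesterol has in animal cells. Its synthesis starts with the mevalonate pathway, which builds isoprenoid units from acetyl-CoA. Squalene made from these units is oxidised and closed to lanosterol. A series of demethylations, a methylation, an isomerisation, desaturations and reductions turns lanosterol into ergosterol. Several of these steps consume oxygen and some need haem. The zinc cluster factors Upc2 and Ecm22 switch on many of the genes when sterol runs low. Surplus sterol is stored as esters in lipid droplets.

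RNA came from strain BY4742, a haploid laboratory strain of mating type alpha that is auxotrophic for histidine, leucine, lysine and uracil, so these alleles were shared by every group. The groups were wild type (2 arrays), a strain with ADA1 replaced by a KanMX marker (1 array) and a strain with GCN5 replaced in the same way (1 array). ADA1, listed as HFI1 on the array, encodes a structural subunit of the SAGA coactivator, and GCN5 encodes the histone acetyltransferase of SAGA. Cells were grown at 30 °C in 5 ml of the rich medium YPD to an optical density of 0.7, and 200 ng of total RNA was labelled with biotin for 1-colour Affymetrix arrays.

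Each deletion was measured on 1 array, and the labels do not say if separate cultures were used for wild type. P-values therefore measure only the scatter of these arrays, possibly technical, and the scatter of the wild-type pair was taken to hold for the deletion arrays too. HFI1 gave a signal of 6.70 on the ada1 deletion array and 246 to 372 on the others, and GCN5 gave 3.28 on the gcn5 deletion array and 309 to 385 on the others. The median signal per array ranged from 413 to 525. The arrays of the ada1 deletion and of wild-type replicate 1 had maxima of 21989 and 23746, and those of the gcn5 deletion and of wild-type replicate 2 had maxima of 12244 and 11804. The labels name no batch for these pairs, and values against the wild-type array of the same range are given beside several of the brighter probe sets. A culture with fewer cells that make a transcript and one with less transcript per cell cannot be told apart in such data.

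The signals are MAS5 values, which summarise the probes of a probe set on a linear scale in arbitrary units. Signals of different genes come from different probes and are not compared. Between the wild-type arrays the members differed by a median of 0.16 on the log2 scale, and for 33 of 34 by less than 1.5-fold. The exception was UPC2, at 0.79. On 30 members every array lay above the background level, a signal of 166, and on the other 4 (UPC2, SUT1, ARE2 and ATF2) at least 1 array lay under it. This level is the 20th percentile of the mean signals of all probe sets, not a measured detection limit.

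**Figure D1:**
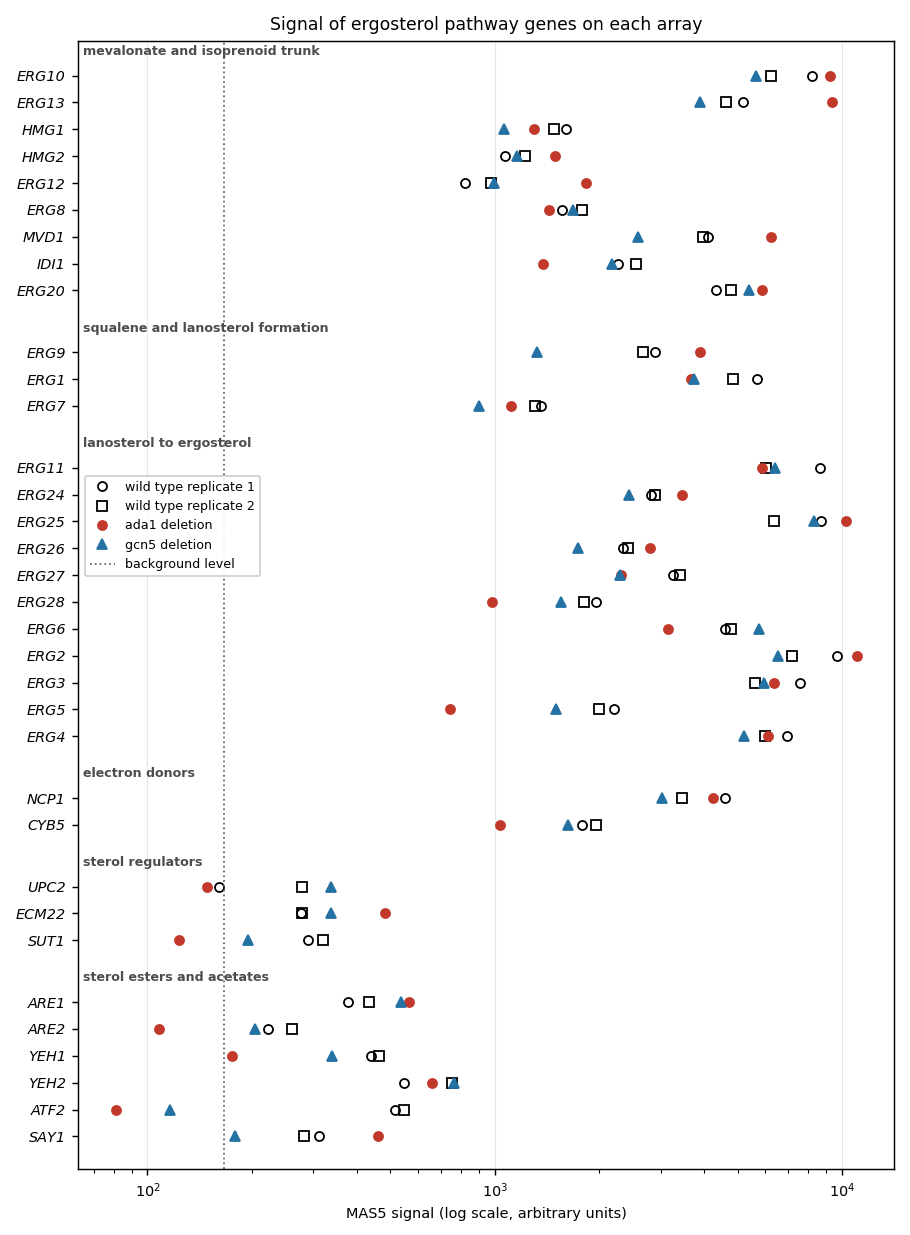
MAS5 signal (log axis, arbitrary units) of each of the 34 genes on the 4 arrays, grouped by role; each point is 1 array and the dotted line is the background level of 166. Open wild-type symbols lie close together for most genes. Genes called in the ada1 deletion were ERG12, IDI1, ERG5, ERG28, CYB5, SUT1, ARE2, YEH1 and ATF2, and in the gcn5 deletion ERG9 and ATF2. Some genes without a call on these values, such as ERG13, MVD1 and ECM22 in the ada1 deletion, also lie apart from both wild-type symbols.

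In the ada1 deletion, compared with wild type, 3 of 6 genes for sterol esters and acetates (ATF2, YEH1, ARE2) were called lower. The regulator gene SUT1, 2 of 11 late genes (ERG5, ERG28), CYB5 and IDI1 of the isoprenoid trunk were called lower too. The other genes of these groups were not called lower and lay on both sides of wild type. ERG12, which encodes mevalonate kinase, rose. Over all genes tested, 5.70 percent were called lower and 2.73 percent higher. The role groups are small and were chosen with earlier results of these data known. ATF2 was at least 3.21-fold lower, ERG5 was 2.82-fold and IDI1 1.74-fold lower, and ERG12 was 2.05-fold higher.

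The limma fit covered all 4541 genes tested, and an adjusted p under 0.05 counts as a call. Of the 34 members, 1 was called higher and 8 lower, or 26.5 percent, against 8.43 percent of all genes tested. The share called lower was 23.5 percent of members against 5.70 percent of all genes, and 2.73 percent of all genes were called higher. After quantile normalization 4 members were called higher and 10 lower, while 6.10 and 8.37 percent of all genes were. With every array scaled to the same median, 2 members were called higher and 8 lower, against 6.52 and 8.72 percent of all genes. The 9 members called on the deposited values were all among these 14. The median log2 difference of the members was -0.06 against 0.08 for all genes. Of the members not called, some lay above and some below wild type, from -0.57 to 0.93.

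In the mevalonate and isoprenoid trunk, 1 of 9 genes was called higher and 1 lower, and the median was 0.37. Over all genes tested the shares were 2.73 and 5.70 percent, and 9 genes are too few to be set apart from them. ERG12 gave 1832 in the ada1 deletion against 822 and 972 in wild type (log2 difference 1.03 ± 0.23 SE, adjusted p = 0.000218). Both wild-type arrays lay well under the deletion array. IDI1, the isomerase that interconverts the isoprenoid units, gave 1377 against 2260.0 and 2542 (-0.80 ± 0.23 SE, adjusted p = 0.00734). ERG13, which encodes HMG-CoA synthase, gave 9342 against 5196 and 4616, and MVD1, which encodes mevalonate pyrophosphate decarboxylase, gave 6255 against 4103 and 3963. Both lay above both wild-type arrays but did not pass the test on the deposited values (0.93 ± 0.42 SE, adjusted p = 0.194, and 0.63 ± 0.32 SE, adjusted p = 0.299). After quantile normalization, which narrows the spread at bright signals, both were called higher (adjusted p = 0.00370 and 0.0126). Against the wild-type array of the same range the differences were 0.85 for ERG13 and 0.61 for MVD1.

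The HMG-CoA reductase isozymes, which catalyse the main regulated step of the pathway, did not pass the test. HMG1 gave 1299 against 1608 and 1484, and HMG2 gave 1488 against 1068 and 1219. HMG1 was thus under both wild-type arrays and HMG2 above both, with log2 differences of -0.25 ± 0.22 SE and 0.38 ± 0.22 SE. The thiolase gene ERG10, the phosphomevalonate kinase gene ERG8 and the farnesyl pyrophosphate synthase gene ERG20 had differences of 0.37, -0.22 and 0.37 without a call.

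None of the 3 genes that make squalene and lanosterol was called on the deposited values in limma. At an unadjusted p under 0.05 there was 1, where 756 of all 4541 genes tested passed. ERG9 encodes squalene synthase, the first enzyme committed to sterols, and gave 3896 against 2897 and 2664 (0.49 ± 0.24 SE, adjusted p = 0.280). ERG1, which encodes squalene epoxidase, the target of terbinafine, gave 3677 against 5687 and 4856 (-0.52 ± 0.35 SE, adjusted p = 0.530) and was called lower after quantile normalization (adjusted p = 0.0426), with -0.63 against the wild-type array of the same range. ERG7, which encodes lanosterol synthase, gave 1115 against 1357 and 1305.

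Among the 11 genes from lanosterol to ergosterol, 2 fell, 9 were not called and the median was -0.08. Of all genes tested, 5.70 percent were called lower. ERG5, a cytochrome P450 that introduces a double bond into the sterol side chain, gave 743 against 2198 and 1999. Its log2 difference was -1.50 ± 0.22 SE (adjusted p = 4.14e-10, and 0.000802 after quantile normalization), or 2.82-fold lower. ERG28, a membrane protein that holds the demethylation enzymes together, gave 979 against 1952 and 1801 (-0.94 ± 0.22 SE, adjusted p = 0.000434).

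The enzymes that ERG28 tethers were not called. The methyl oxidase gene ERG25 gave 10283 against 8716 and 6345, the decarboxylase gene ERG26 2790.3 against 2340.1 and 2423, and the keto reductase gene ERG27 2306 against 3263 and 3408. ERG25 and ERG26 lay above both wild-type arrays and ERG27 below both, with log2 differences of 0.47, 0.23 and -0.53 and no call. ERG6, the sterol methyltransferase gene, gave 3154 against 4597 and 4776 (-0.57 ± 0.35 SE, adjusted p = 0.459) and was called lower after quantile normalization (adjusted p = 0.0398), with -0.54 against the wild-type array of the same range. The remaining genes were ERG11, the lanosterol demethylase and azole target, with ERG24, ERG2, ERG3 and ERG4, and their differences lay from -0.30 to 0.41.

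The sterol P450 enzymes take electrons from NCP1, the NADPH-P450 reductase, and CYB5, cytochrome b5, can donate electrons to several steps. CYB5 gave 1033 against 1780.5 and 1962 (-0.86 ± 0.22 SE, adjusted p = 0.00183). NCP1 gave 4240.0 against 4612 and 3450.5, between the wild-type arrays.

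Of the 3 regulators, SUT1 fell, where 5.70 percent of all genes tested were called lower. SUT1 is a zinc cluster protein that promotes sterol uptake, and it gave 123 against 289 and 321 (-1.30 ± 0.37 SE, adjusted p = 0.00752). Since the deletion array lay under the background level, the change is stated as at least 1.84-fold, which sets the wild-type mean against that level. UPC2 gave 148 against 161 and 278 (-0.51 ± 0.37 SE, adjusted p = 0.565), with the deletion array and 1 wild-type array under background. Its paralog ECM22 gave 483 against 277 and 279 (0.80 ± 0.40 SE, adjusted p = 0.299) and was called higher after quantile normalization (adjusted p = 0.0378) and with every array at a common median (adjusted p = 0.00762). Under the other alternatives its adjusted p lay from 0.135 to 0.294.

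Of the 6 genes for sterol esters and acetates, 3 fell, where 5.70 percent of all genes tested were called lower. ATF2, an alcohol acetyltransferase that also acetylates sterols and so marks them for secretion, gave 80.9 against 516 and 547. Its log2 difference was -2.71 ± 0.37 SE (adjusted p = 3.52e-11, and 4.24e-05 after quantile normalization). Against the background level the decrease was at least 3.21-fold. YEH1, a steryl ester hydrolase that releases stored sterol, gave 175 against 440.1 and 463 (-1.37 ± 0.40 SE, adjusted p = 0.0122). ARE2, the main acyltransferase that forms steryl esters, gave 108 against 222 and 260.4 (-1.15 ± 0.35 SE, adjusted p = 0.0152), or at least 1.45-fold lower against background.

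Each of these esterification genes has a counterpart that was not called. ARE1, the second acyltransferase gene, gave 566 against 377 and 436 (0.48 ± 0.38 SE, adjusted p = 0.625). YEH2, the plasma membrane hydrolase gene, gave 661 against 547 and 751 (0.04 ± 0.30 SE, adjusted p = 0.985). SAY1, the deacetylase that reverses the ATF2 reaction, gave 459.6 against 313 and 283 (0.63 ± 0.40 SE, adjusted p = 0.482).

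The calls of ERG12, ERG28, CYB5 and IDI1 ended when 1 variance prior served all signal levels (adjusted p = 0.0605, 0.117, 0.187 and 0.252), and that of IDI1 also without the filter on dim probe sets (adjusted p = 0.0768). With signals under background raised to it, ARE2 lost its call (-0.54, adjusted p = 0.129) and the ATF2 difference was -1.68, still called.

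**Figure D2:**
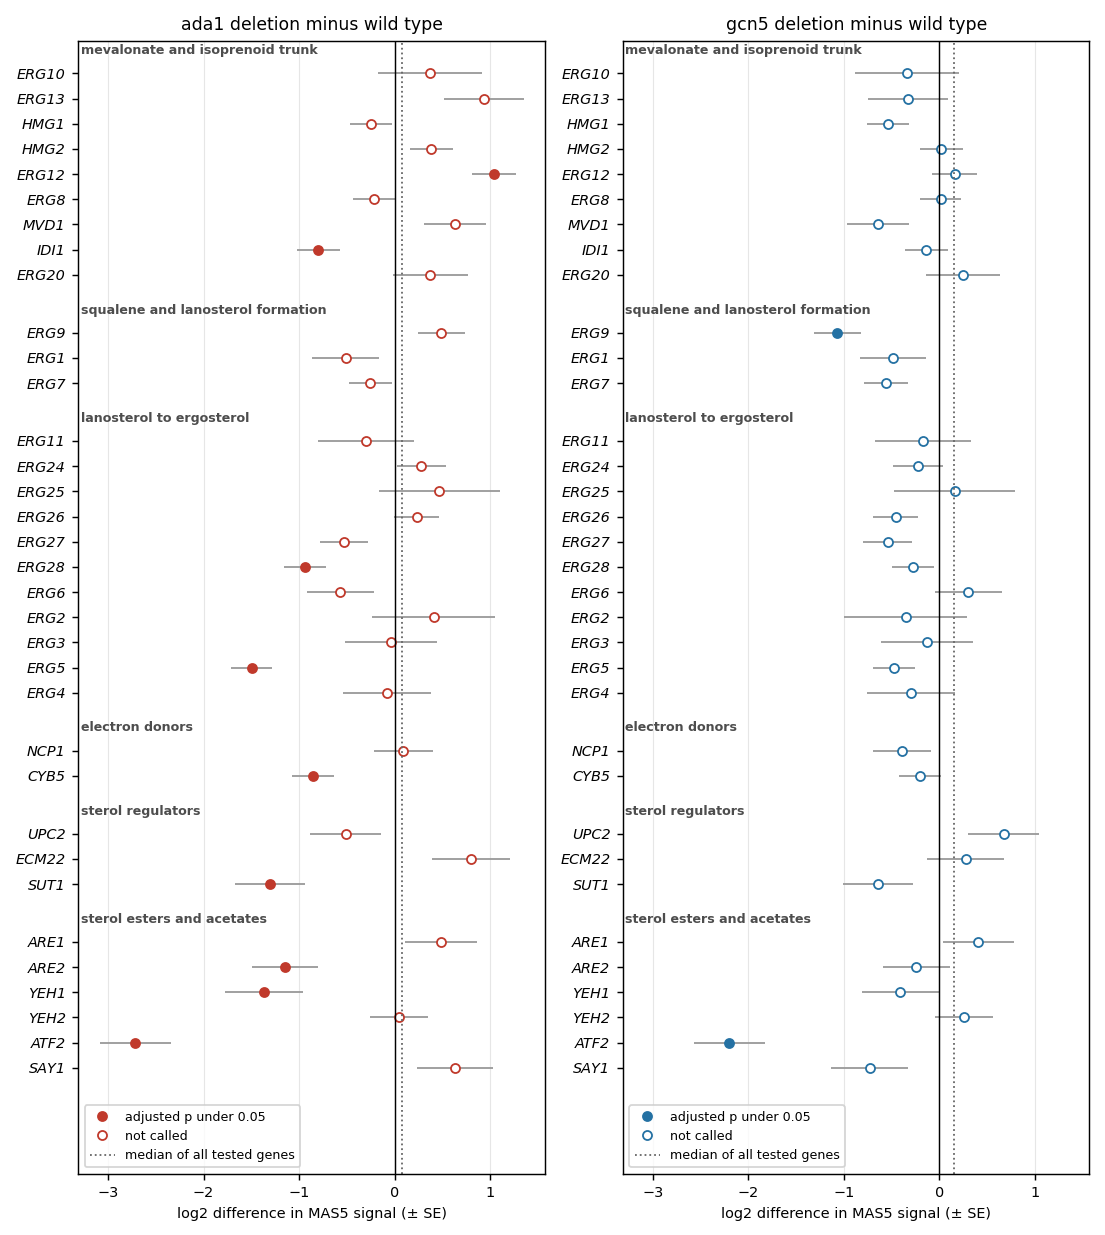
Log2 difference in MAS5 signal of each gene in the ada1 deletion (left) and the gcn5 deletion (right) relative to the mean of the 2 wild-type arrays; bars are SE from the limma fit, filled points have an adjusted p under 0.05 and the dotted line is the median of all tested genes. In the ada1 deletion 8 genes were called lower and 1 higher, and in the gcn5 deletion ATF2 and ERG9 were called lower.

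In the gcn5 deletion, compared with wild type, ATF2 fell at least 3.21-fold and ERG9 fell 2.10-fold, and no member was called higher (limma). At an unadjusted p under 0.05, in either direction, there were 8 of 34 members and 679 of the 4541 genes tested. Most members other than ATF2 and ERG9 lay a little under wild type without passing the test.

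The 2 calls of 34 members, 5.88 percent, stood beside 4.65 percent of all genes tested, a share near the background (2.11 percent of all genes were called higher and 2.53 percent lower). After quantile normalization 5 members were called, all lower, against 7.18 percent of all genes (2.44 percent higher and 4.73 percent lower). With every array scaled to the same median, 7 were called, all lower, against 3.57 percent of all genes called higher and 6.91 percent lower. They were ATF2, ERG9, ERG5, ERG7, HMG1, SAY1 and SUT1. The median log2 difference of the members was -0.29 against 0.15 for all genes. Replicate 1 of wild type alone gave -0.39 and replicate 2, the array of the same signal range, gave -0.22, where the medians of all genes were 0.25 and 0.07. Of the 34 members, 22 lay below both wild-type arrays and 7 above both, while 24.9 percent of all genes lay below both and 53.1 percent above both. In the ada1 deletion 16 members lay below both and 14 above both, against 29.9 and 41.5 percent of all genes. Over all genes, 71.4 percent lay outside the wild-type pair in the ada1 deletion and 78.0 percent in the gcn5 deletion.

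ATF2 gave 116 in the gcn5 deletion against 516 and 547 in wild type, and the deletion array lay under the background level. Its log2 difference was -2.20 ± 0.37 SE (adjusted p = 4.72e-07, and 0.000230 after quantile normalization). Against that level the decrease was at least 3.21-fold. The other genes of sterol esters and acetates did not pass the test. SAY1 gave 179 against 313 and 283 (-0.73 ± 0.40 SE, adjusted p = 0.382) and was called lower after quantile normalization (adjusted p = 0.0351). YEH1 gave 339.7 and ARE2 203, with differences of -0.41 and -0.24, and ARE1 gave 538 and YEH2 765, with differences of 0.41 and 0.26.

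ERG9, squalene synthase, gave 1325 against 2897 and 2664 (-1.07 ± 0.24 SE, adjusted p = 0.000632; -1.12 ± 0.15 SE, adjusted p = 0.00292 after quantile normalization). The call ended with 1 variance prior for all signal levels (adjusted p = 0.0768), and the difference was -1.01 against the wild-type array of the same range. The enzymes that follow it lay under both wild-type arrays as well, without a call on the deposited values. ERG1 gave 3757 against 5687 and 4856 (-0.48 ± 0.35 SE, adjusted p = 0.547), and ERG7 gave 902 against 1357 and 1305 (-0.56 ± 0.23 SE, adjusted p = 0.156). ERG7 was called lower with every array at the same median (adjusted p = 0.00443), and its adjusted p lay from 0.0527 to 0.561 under the other alternatives.

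None of the 9 trunk genes was called in limma, with 2 at an unadjusted p under 0.05, where 679 of all 4541 genes passed. MVD1 had the lowest difference, with 2585 against 4103 and 3963 (-0.64 ± 0.32 SE, adjusted p = 0.323), and was called lower after quantile normalization (adjusted p = 0.0336). HMG1 gave 1061 against 1608 and 1484 (-0.54 ± 0.22 SE, adjusted p = 0.156, and 0.00939 at the same median, with 0.0606 to 0.581 elsewhere), under both wild-type arrays, and HMG2 1155 against 1068 and 1219, between them. ERG12, which rose in the ada1 deletion, gave 997 against 822 and 972 (0.16 ± 0.23 SE, adjusted p = 0.817).

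None of the 11 genes from lanosterol to ergosterol was called either before or after quantile normalization (limma). Of them 3 had an unadjusted p under 0.05, where 679 of all 4541 genes did. Differences ran from -0.54 for ERG27 to 0.30 for ERG6. ERG5 gave 1505 against 2198 and 1999 (-0.48 ± 0.22 SE, adjusted p = 0.247, and 0.0299 at the same median, with 0.116 to 0.641 elsewhere). ERG28 gave 1549 against 1952 and 1801 (-0.28 ± 0.22 SE, adjusted p = 0.595). CYB5 and NCP1 had differences of -0.21 and -0.39. Of the regulators, UPC2 gave 337 against 161 and 278 (0.67 ± 0.37 SE, adjusted p = 0.385), where the difference was 1.07 against replicate 1 and 0.28 against replicate 2. ECM22 gave 337 against 277 and 279, and SUT1 gave 195 against 289 and 321 (-0.65 ± 0.37 SE, adjusted p = 0.415), with SUT1 called lower after quantile normalization (adjusted p = 0.0324).

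The deletion arrays were then compared directly, to test whether the strains differ. Both comparisons above share the wild-type arrays, whereas this contrast sets 1 array against 1 array with the spread of the wild-type pair. Transcripts of squalene synthase (ERG9), mevalonate pyrophosphate decarboxylase (MVD1) and mevalonate kinase (ERG12) were higher in the ada1 deletion than in the gcn5 deletion, and ERG5 was lower. These 4 of 34 members, 11.8 percent, stood against 6.25 percent of all genes tested, of which 2.0 percent were called higher and 4.25 percent lower in the ada1 deletion. After quantile normalization 6 members were called higher and 3 lower, against 5.59 and 5.66 percent of all genes, and the 4 named were among them. With every array scaled to the same median, ERG9, ERG12 and SAY1 were called higher (3) and ERG5, UPC2 and YEH1 lower (3), against 6.61 and 5.75 percent.

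ERG9 gave 3896 in the ada1 deletion and 1325 in the gcn5 deletion, 2.94-fold apart (1.56 ± 0.28 SE, adjusted p = 1.72e-06). The wild-type signals of 2897 and 2664 lay between the deletions. MVD1 gave 6255 and 2585 (1.27 ± 0.37 SE, adjusted p = 0.0137), again on either side of wild type. ERG12 gave 1832 and 997 (0.88 ± 0.27 SE, adjusted p = 0.0198), the latter close to wild-type replicate 2. ERG5 gave 743 and 1505 (-1.02 ± 0.25 SE, adjusted p = 0.00148), both under wild type. ERG9 kept its call under every alternative tested, whereas MVD1 lost it under 3 of 7, with adjusted p up to 0.0688, ERG12 under 4 of 7, up to 0.315, and ERG5 under 1 of 7, 0.182.

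SAY1, with 459.6 and 179, missed the threshold (1.36 ± 0.46 SE, adjusted p = 0.0509) and passed it after quantile normalization (adjusted p = 0.00543). It also passed under the other alternatives that tested it, except with signals raised to background. ERG13, with 9342 and 3897 (1.26 ± 0.48 SE, adjusted p = 0.108), ERG6, with 3154 and 5770.3 (-0.87 ± 0.40 SE, adjusted p = 0.254), ERG26 (adjusted p = 0.129) and UPC2 (adjusted p = 0.0776) also passed after quantile normalization (adjusted p = 0.00345, 0.00490, 0.0219 and 0.0494). The UPC2 difference shrank from -1.19 to -0.40 when each deletion was first set against the wild-type array with a like maximum. ATF2, at 80.9 and 116, was not called (-0.52 ± 0.43 SE, adjusted p = 0.686), with both arrays under background.

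**Figure D3:**
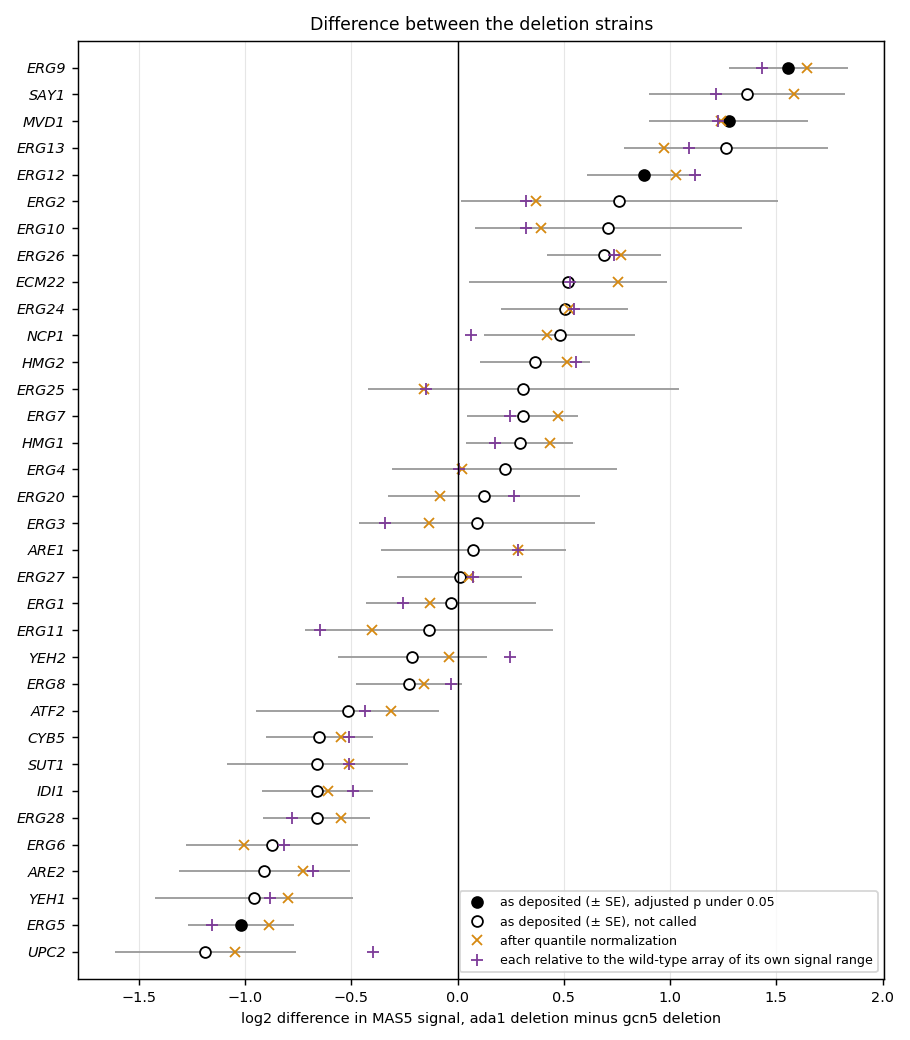
Log2 difference in MAS5 signal between the ada1 and the gcn5 deletion for each gene, ordered by the value on the deposited scale (circles, bars are SE, filled where the adjusted p is under 0.05), with the values after quantile normalization (crosses) and relative to the wild-type array of the same signal range (plus signs). ERG9, MVD1 and ERG12 lie to the right of 0 and ERG5 to the left on all 3 scales, while the bright genes ERG2, ERG10 and ERG25 move towards 0 or across it.

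Genes next to the pathway were read from 5 further lists. Of 22 genes of sterol uptake and transport, 21 were tested, and 2 rose and 2 fell in the ada1 deletion (19.0 percent of the list, against 8.43 percent of all genes; median 0.0045). PDR11, an ABC transporter gene for sterol import, gave 384 against 156 and 182 (1.19 ± 0.34 SE, adjusted p = 0.00979), with wild-type replicate 1 under background. NCR1, the yeast counterpart of the Niemann-Pick sterol transport protein, rose by 0.70 ± 0.22 SE (adjusted p = 0.0201). PRY2, a secreted sterol-binding protein gene, fell by 0.87 ± 0.23 SE (adjusted p = 0.00266). The second gene that fell was KES1, of the oxysterol-binding family, which is named after its value was seen.

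In the gcn5 deletion 1 gene of that list was called, 4.76 percent, near the 4.65 percent of all genes. PRY1, the paralog of PRY2, gave 1996 against 518 and 697 (1.73 ± 0.29 SE, adjusted p = 4.38e-07). In the ada1 deletion it gave 359.9 (-0.74 ± 0.29 SE, adjusted p = 0.109) and was called lower after quantile normalization (adjusted p = 0.0275). PDR11 and SUT2, the latter named after its value was seen, were called lower in the gcn5 deletion after quantile normalization (adjusted p = 0.0246 and 0.0118). The share of the list called was then 14.3 percent, against 7.18 percent of all genes. PDR11 gave 106 in the gcn5 deletion, under the background level, and was at least 2.31-fold higher in the ada1 than in the gcn5 deletion (adjusted p = 0.000118). For PRY1 the deletions differed by -2.47 ± 0.34 SE (adjusted p = 3.85e-11). Between the deletions 1 of the 21 tested genes was called higher and 2 lower (14.3 percent, against 6.25 percent of all genes). The other lower gene was LAM4 (-1.40 ± 0.47 SE, adjusted p = 0.0446), named after its value was seen. The list median was 0.20 in the gcn5 deletion, near that of all genes.

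Fatty acid and sphingolipid synthesis had 5 of 21 genes lower and 0 higher in the ada1 deletion (23.8 percent, against 5.70 percent of all genes called lower). In the gcn5 deletion 1 was lower (4.76 percent, against 2.53 percent of all genes called lower). The medians were -0.34 and -0.30. IPT1 and SUR1, which add the inositol and mannose head groups of complex sphingolipids, gave 299.9 and 263 in the ada1 deletion against 1129 and 1009 and against 966 and 892. Their differences were -1.83 ± 0.33 SE (adjusted p = 9.97e-07) and -1.82 ± 0.32 SE (adjusted p = 4.89e-07). ELO1, a fatty acid elongase gene, fell by 1.23 (adjusted p = 0.00182), and SCS7, which hydroxylates ceramides, fell by 1.14 (adjusted p = 1.22e-05). The fifth, named after its value was seen, was the ketosphinganine reductase gene TSC10. In the gcn5 deletion IPT1 gave 393 (-1.44 ± 0.33 SE, adjusted p = 0.000647), and SUR1 gave 713 without a call.

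The other lists had no call against wild type in either deletion (limma). They were haem synthesis with haem and oxygen regulators (13 of 15 tested, medians -0.02 and 0.02), isoprenoid branches such as prenylation and ubiquinone (11 of 12 tested, -0.24 and -0.11) and HMG-CoA reductase turnover (10 of 10 tested, 0.20 and 0.18). At an unadjusted p under 0.05 they had 1, 1 and 2 genes in the ada1 deletion and 2, 0 and 2 in the gcn5 deletion. Of all 4541 genes tested, 756 and 679 passed that threshold. After quantile normalization HEM3 of haem synthesis was called lower (adjusted p = 0.0425) and CUE1, a membrane factor of protein degradation at the endoplasmic reticulum, higher (adjusted p = 0.0340) in the ada1 deletion, both named after their values were seen. No gene of these lists was called in the gcn5 deletion then.

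**Figure D4:**
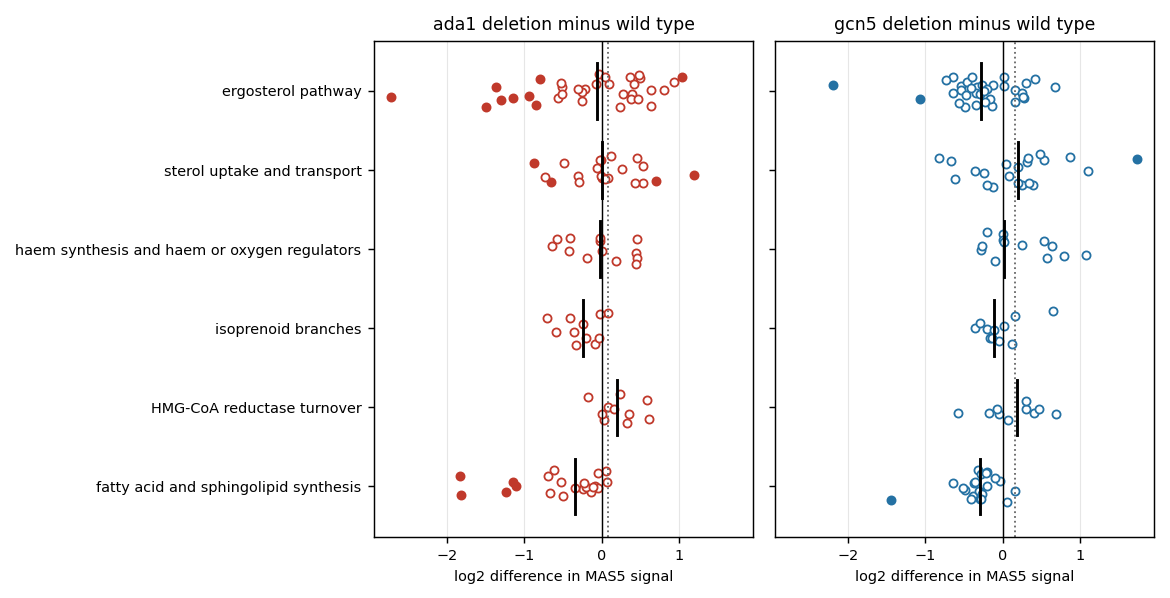
Log2 difference in MAS5 signal relative to wild type for the ergosterol pathway and the 5 neighbouring lists in the ada1 deletion (left) and the gcn5 deletion (right); each point is a tested gene, filled where the adjusted p is under 0.05, black bars are list medians and the dotted line is the median of all tested genes. Filled points lie to the left of 0 for fatty acid and sphingolipid synthesis, and on both sides of it for sterol uptake and transport in the ada1 deletion.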

How the data were processed

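The deposited values are intensity signals on a linear scale made with MAS5, per the submitters' processing notes; no version, scaling target or detection call is stated there. The table holds 5716 probe sets on 4 arrays, of which 5498 have 1 gene symbol in the platform annotation, 0 have several and 218 have none. The probe set with the highest mean stood for each gene. Genes with a mean log2 signal under the 20th percentile of all probe sets (a signal of 166, the background level) were left out, and 4541 were tested with limma 3.58.1 in R 4.3.3. All 4 arrays entered 1 fit of 3 groups, with a variance trend on signal and 1 residual degree of freedom from the wild-type pair. On the deposited values limma's prior degrees of freedom were infinite, so each gene took the spread of its signal level, and 7.84 after quantile normalization. Benjamini-Hochberg adjustment ran over the 4541 genes, with a threshold of 0.05. Where a deletion array lay under background and both wild-type arrays above it, the fold sets the wild-type mean against the background level. Alternatives were quantile normalization, a common median, no filter, the 40th percentile (a signal of 347), signals raised to background, a single variance prior, the mean of all probe sets, each wild-type array left out and the wild-type array of the same range. The number of arrays limits the precision. Members, role groups, lists and the naming rule (every member, and up to 4 called genes of each further list by largest difference) were chosen with earlier results of these data known. No sequence was used here.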

Additional observations from a re-analysis of the deposited data

Results flagged for a closer look

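Of the 34 pathway genes, 4 had effects that differed between the deletions in the direct test of the ada1 deletion against the gcn5 deletion (limma, adjusted p under 0.05). ERG9 was higher in the ada1 deletion by 1.56 on the log2 scale, MVD1 by 1.27 and ERG12 by 0.88, and for ERG5 the difference was -1.02. The adjusted p was 1.72e-06 for ERG9 (5.70e-10 to 0.00662 over the alternatives), 0.0137 for MVD1 (0.00102 to 0.0688), 0.0198 for ERG12 (0.000212 to 0.315) and 0.00148 for ERG5 (0.000538 to 0.182). Set against the wild-type array of the same signal range, a comparison added after seeing the data, the differences were 1.43, 1.22, 1.12 and -1.16. Each deletion is 1 array, so strain and array cannot be told apart.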

How the results depend on the processing

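Of the 15 calls of pathway genes over the 3 comparisons, 6 held under every alternative that tested them, and no called difference changed sign. In the ada1 deletion the members called were 9, and 14 after quantile normalization, 5 with the background at the 40th percentile and 5 with a single variance prior. All genes called were 383, and 657 after quantile normalization, 692 with a common median and 245 with the single prior. The median of the members was 0.0449 at the 40th percentile and lay from -0.12 to -0.0080 when either wild-type array was left out. In the gcn5 deletion the 2 members called became 5 after quantile normalization, 7 with a common median, 1 at the 40th percentile and 1 with the single prior. All genes called went from 211 to 326, 476, 106 with signals raised to background and 123 with the single prior, and the median was -0.51 with a common median and from -0.39 to -0.22 without either wild-type array. Between the deletions the 4 members became 9 after quantile normalization and 2 with signals raised to background. All genes called went from 284 to 511 after quantile normalization, 561 with a common median, 135 with signals raised to background and 187 with the single prior. The median of the members, 0.11, was -0.0097 after quantile normalization, 0.31 with a common median, 0.22 at the 40th percentile and 0.0673 against the wild-type array of the same range, added after seeing the data. The 40th percentile tests fewer genes, which removes dim members such as ATF2. A common median moves the difference of every gene in a comparison by the same amount. With it the median of all genes went from 0.15 to -0.06 in the gcn5 deletion and from -0.11 to 0.09 between the deletions. The cause of the remaining shifts was not tested. The level of 166 is a percentile of the mean signals and not a measured detection limit. Lower signals occur, such as 6.70 for HFI1 on the ada1 deletion array. No paired analysis was possible because each deletion has 1 array and the labels give no number that pairs it with a wild-type array.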

Other observations

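The nearest measured protein-coding genes on each side of the 11 called members were read in RefSeq's gene order (assembly R64), a comparison chosen after the values were seen. For 3 of the 22 such neighbours 1 gene between it and the member was skipped. Of the 22, 2 were called in the ada1 deletion (9.09 percent) and 1 in the gcn5 deletion (4.55 percent), shares near the 8.43 and 4.65 percent of all genes tested (limma). They were DBP2 next to CYB5 and RCF2 next to ARE2, both lower in the ada1 deletion, and AGA1 next to MVD1, lower in the gcn5 deletion. Between the deletions 2 were called (9.09 percent, against 6.25 percent of all genes), both higher in the ada1 deletion, as ERG9 and MVD1 were. GPI16 beside ERG9, with 1 gene skipped, differed by 1.05 (adjusted p = 0.000938) and AGA1 by 1.53 (adjusted p = 0.000266). ATF2 lies between ERG1 and PBP1. ERG1 differed from wild type by -0.52 in the ada1 deletion and by -0.48 in the gcn5 deletion, not called on the deposited values and called lower in the ada1 deletion after quantile normalization (adjusted p = 0.0426). PBP1 had differences of 0.12 and -0.04.

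Of the 21 genes of fatty acid and sphingolipid synthesis, 18 lay below both wild-type arrays in the ada1 deletion and 18 in the gcn5 deletion (85.7 percent in each), where 29.9 and 24.9 percent of all genes tested did. The comparisons share the wild-type arrays. HAP1, the haem-responsive activator gene of the haem list, was lower in the ada1 than in the gcn5 deletion (-0.95 ± 0.31 SE, adjusted p = 0.0393, limma), and it is named after its value was seen.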
